A study of Drosophila melanogaster with 2 samples.

Results

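Nucleoporin genes encode the proteins of the nuclear pore complex. They were chosen by symbol: every protein-coding gene whose name starts with Nup and a digit, together with Sec13, Elys, Gp210, Ndc1, Aladin and Megator (Mgtor, known by the older symbols Mtor and Tpr). The kinase gene mTor and the gene now called tpr are different genes and were not members. The rule gave 27 of the 13968 protein-coding genes on the chromosome arms and used no measured value.

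The series measured binding of CG13287, a Drosophila melanogaster protein, by chromatin immunoprecipitation and sequencing (ChIP-seq) in whole embryos aged 6 to 24 h. The embryos were of the strain CG13287-GFP, which is transgenic for a CG13287-eGFP fusion, and an anti-GFP antibody was used for the precipitation. All material was of this 1 group, with 2 biological replicates, and no other genotype, stage or treatment was analysed here. Chromatin was sonicated to 200 to 800 bp. Whole embryos mix all tissues, so a peak does not say which cells carried it. Without an untagged or second group no comparison between conditions was possible, and no test was made. An experiment that the labels name as a possible control was not analysed here.

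The nuclear pore complex is a channel through the nuclear envelope that carries proteins and RNA between nucleus and cytoplasm. A Y-shaped scaffold complex forms its outer rings, an inner ring complex anchors it to the pore membrane, and nucleoporins rich in phenylalanine-glycine (FG) repeats fill the central channel and bind transport receptors. Filaments reach into the cytoplasm on one face and a basket reaches into the nucleus on the other, and several nucleoporins of flies are also known to bind chromatin away from the pore.

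The sequences at issue are the promoters of these genes, since a peak was assigned to a gene only if its summit lay near a start site. Shown first are members with the letters ATCGAT close to the summit. That string is the core of the DNA replication-related element (DRE, TATCGATA), the binding sequence of the factor Dref. Nup358 and Nup133 had the highest signals of all members, Nup205 is a member of high signal that shares its promoter with another gene, Nup58 has the complete DRE, and Ndc1 has its summit almost at the transcription start site (TSS). Each is given 5′ to 3′ on the plus strand of Release 6 (dm6), from the RefSeq copy of that genome. All 5 genes are on the plus strand. The windows are the summit with 50 bp on either side, or the stretch of them that ends just before the transcribed region. Capitals mark ATCGAT, or TATCGATA in Nup58.
Nup358, chr3R:25249243-25249343: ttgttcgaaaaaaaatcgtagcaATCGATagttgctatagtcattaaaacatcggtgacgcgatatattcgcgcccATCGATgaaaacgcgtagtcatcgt
Nup133, chr3R:22690457-22690557: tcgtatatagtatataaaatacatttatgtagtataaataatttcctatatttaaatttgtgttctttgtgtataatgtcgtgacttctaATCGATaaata
Nup205, chrX:19852086-19852186: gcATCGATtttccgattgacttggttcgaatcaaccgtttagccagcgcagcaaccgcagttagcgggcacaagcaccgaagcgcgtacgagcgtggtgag
Nup58, chr3R:19644941-19645025: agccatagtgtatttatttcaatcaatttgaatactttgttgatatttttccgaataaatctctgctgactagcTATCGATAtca
Ndc1, chr3R:23924343-23924398: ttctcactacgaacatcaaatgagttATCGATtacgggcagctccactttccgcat

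Shown for contrast are the 4 members that had no peak in the conservative list. The members above were chosen for holding ATCGAT, and the 8 members with a peak but no ATCGAT in the promoter are not shown. The printed sequences therefore cannot show whether these letters separate members with a peak from those without. The windows of Nup58 and Ndc1 above are shorter than the rest. The 4 windows below have the full length but lie directly upstream of the TSS and are not centred on a summit. They are again on the plus strand of Release 6, and all 4 genes are on that strand. None of them holds ATCGAT, so no letters are in capitals.
Nup154, chr2L:11004719-11004819: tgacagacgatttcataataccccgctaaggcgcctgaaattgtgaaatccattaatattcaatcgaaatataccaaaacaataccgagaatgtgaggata
Nup37, chr3R:25247557-25247657: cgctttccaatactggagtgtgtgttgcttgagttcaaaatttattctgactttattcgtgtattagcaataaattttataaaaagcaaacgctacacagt
Nup43, chr3R:18366537-18366637: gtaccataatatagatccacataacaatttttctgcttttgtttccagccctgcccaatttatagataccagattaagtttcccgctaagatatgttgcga
Nup93-1, chrX:13822725-13822825: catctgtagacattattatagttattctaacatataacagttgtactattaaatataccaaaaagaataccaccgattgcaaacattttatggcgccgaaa

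CG13287 peaks stood at the start sites of most nucleoporin genes. A gene was counted when the distance from a peak summit to any of its annotated TSSs was at most 500 bp. In the conservative list, the shorter of the filtered lists made from both replicates, 23 of 27 nucleoporin genes had a peak (85.2%, exact Clopper-Pearson 95% interval 66.3 to 95.8%), against 39.8% of all protein-coding genes. The interval covers counting error over genes only. In the optimal list 25 nucleoporin genes had one, against 43.7% of all genes. The lists had been filtered by the irreproducible discovery rate (IDR), which keeps peaks that rank alike in 2 sets of reads.

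The same held in each replicate's own filtered list. Replicate 1 had a peak at 20 nucleoporin genes (74.1%), against 30.3% of all genes, and replicate 2 at 24 (88.9%), against 44.9%. All 20 of replicate 1 were among the 24 of replicate 2. Over all genes, 4143 were in both lists (29.7%) and only 96 in that of replicate 1 alone, so such nesting was general. In the longer ranked lists, made before the filter, all 27 members had a peak in the list behind the conservative one and in the list behind the optimal one, against 60.7% and 62.8% of all genes. The ranked list of replicate 1 had 26 members, against 58.0% of all genes, and lacked Nup154, and that of replicate 2 had all 27, against 66.1%. The ranked lists held 24477 to 36779 peaks each, so a listing in them is weak information by itself.

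Other rules for a peak at a gene gave like counts for the conservative list. Within 200 bp of a TSS there were 22 nucleoporin genes, against 35.0% of all genes, and the member that dropped out was Nup214. Within 1000 bp there were 23, against 42.7%, and a peak interval that covered a TSS was found at 23, against 34.8%. When only the stronger peaks of the list were used, those above its median signal, 17 members had one (63.0%), against 26.5% of all genes.

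**Figure D1:**
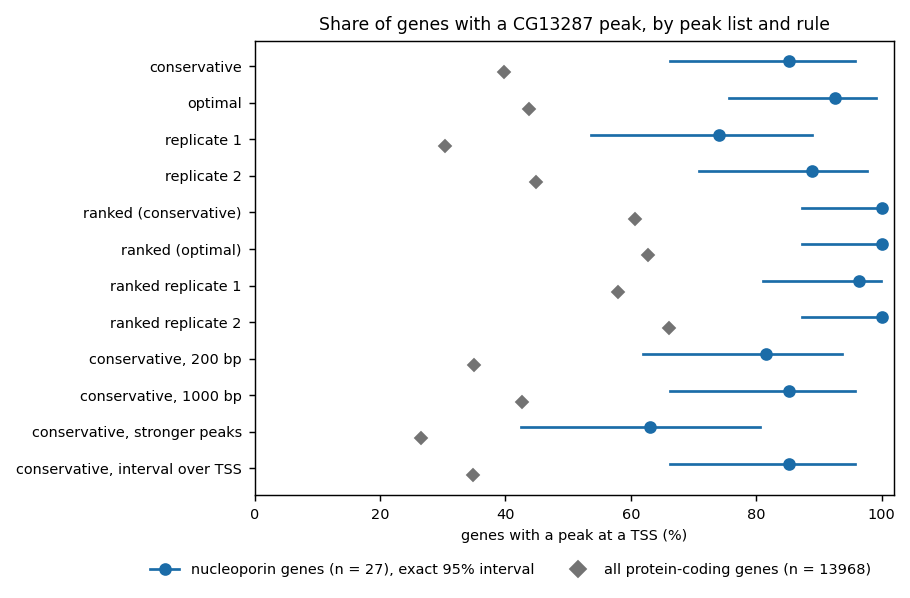
Share of genes with a CG13287 peak at a TSS (%) in 8 peak lists and under 4 other rules for the conservative list, for the 27 nucleoporin genes (circles, with exact 95% intervals) and for all 13968 protein-coding genes (diamonds). The circle lies to the right of the diamond in each of the 12 rows, and the distance is smallest in the ranked list of replicate 2.

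Signal is the signal value of a peak as deposited, whose scaling against depth and control was not stated. Genes are therefore ranked by it only within a list. A ratio between the replicates' lists is given only beside that of all genes or as a description. Over the 23 members with a conservative peak the median signal was 270 (quartiles 200 and 583), against 255 (153 and 513) over all genes with a peak. Split at these 3 values of all genes, 4 members were at or below 153, 5 above it and up to 255, 6 above that and up to 513, and 8 above 513. The nucleoporin genes thus had a peak more often than all genes did, while the median signals lay close together within wide quartiles. The members ran from 88.6 at Nup107 to 1013 at Nup358, and 2 of them were above 793, as were 557 of the 5565 genes with a peak.

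The Y complex has 10 genes among the members, and 8 had a conservative peak. Nup133, a scaffold subunit at the stem of the Y, had the highest signal of the complex. Its signal was 941 in the conservative list, 434 in replicate 1 and 489 in replicate 2, with the summit at -100 bp from the TSS (peak chr3R:22690270-22690736). Nup75, the fly counterpart of the human subunit Nup85, had 691 in the conservative list, 277 in replicate 1 and 421 in replicate 2. Sec13, which is shared with the COPII coat of secretory vesicles, had 582, with 255 in replicate 1 and 330 in replicate 2. These 3 genes were above the upper quartile of all genes with a peak, 513, and were listed in both replicates.

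The other members of the Y complex had lower signals. Nup160 had a conservative signal of 259, with 84.5 in replicate 1 and 163 in replicate 2. Nup44A, the fly Seh1, had 223, with 72.8 in replicate 1 and 163 in replicate 2. Elys, which brings the Y complex to chromatin when pores are built after mitosis, had 173, with 60.2 in replicate 1 and 106 in replicate 2. Each of the 3 was listed in both replicates, and in each replicate 2 was the higher.

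Nup98-96 and Nup107 were near the bottom of the range. Nup98-96 codes for both the FG nucleoporin Nup98 and the scaffold subunit Nup96. Its conservative signal was 123, yet it was in neither replicate's filtered list. It was in both ranked lists, with a signal of 50.5 and a scaled IDR score of 777 in replicate 1, and a signal of 77.3 and a score of 704 in replicate 2. The score runs up to 1000, and no entry of the filtered lists scored under 830. Nup107, a core scaffold subunit next to Nup133 in the stem, had the lowest conservative signal of all members, 88.6. It was in the filtered list of replicate 2, at 61.9, and not in that of replicate 1, where the ranked list had it at 31.8.

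Nup37 and Nup43, WD-repeat subunits of the Y complex, had no conservative peak. Both were in the optimal list, Nup37 with a signal of 82.9 at -172 bp and Nup43 with 76.3 at 3 bp. Replicate 2 had filtered peaks at both, of 65.6 at Nup37 and 70.6 at Nup43. The same entries had scores of 132 and 152 in the ranked list behind the conservative list, and of 965 and 1000 in the one behind the optimal list. The strongest ranked entry of replicate 1 at Nup37 was 38.0 and lay at 465 bp from the inner TSS, and at Nup43 it was 20.1, at -435 bp, so neither lay at the summit found in replicate 2. The nearest conservative summit to Nup37 was the peak of Nup358, the next gene on the plus strand, 1422 bp downstream of the nearer, inner one of the 2 annotated Nup37 TSSs. The entry at -172 bp is measured from the outer one, and its summit lies upstream of the Nup37 sequence printed above.

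Of the 6 inner ring genes, 4 had a conservative peak. Nup205, one of the large scaffold proteins of the ring, had 583, with 251 in replicate 1 and 343 in replicate 2 (peak chrX:19851924-19852317). Its structural relative Nup188 had 249, with 100 in replicate 1 and 148 in replicate 2. Nup35, which links the ring to the pore membrane, had 302, with 122 in replicate 1 and 190 in replicate 2. All 3 were listed in both replicates.

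Nup93 tethers the inner ring scaffold to the central channel, and the fly annotation has 2 genes of that name, which differed. Nup93-2 had a conservative peak of 337, with 127 in replicate 1 and 206 in replicate 2, and a second conservative peak of 274 at -270 bp. Nup93-1 had none at its TSS in any filtered list. Its nearest filtered summits were 89.9 at -558 bp in the optimal list and 83.8 at -561 bp in replicate 2, just outside the 500 bp rule, and the conservative list had none nearer than -11225 bp. Nup154, the fly counterpart of vertebrate Nup155, also had no filtered peak within 500 bp in any list. Its ranked entry had a signal of 32.7 and a score of 176 in the list behind the conservative list, at 39 bp.

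The 3 FG nucleoporins of the central channel, which form 1 complex, all had conservative peaks, of unequal signal. Nup58 had 529, with 217 in replicate 1 and 297 in replicate 2. Nup54 had 178, with 51.4 in replicate 1 and 137 in replicate 2, the largest ratio between replicates of any member (2.66). Nup62 had 105 in the conservative list and 68.0 in replicate 2, and was not in the filtered list of replicate 1. Their 3 conservative summits were at -35 bp, -25 bp and -34 bp from the TSS, within the quartiles of all genes with a peak (-133 and -14 bp). At Nup54 the summit was at 14 bp in replicate 1 and -6 bp in replicate 2. At Nup58 it was at -29 bp and -35 bp, and at Nup62 at -29 bp in replicate 2.

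The cytoplasmic face held both the highest member and one of the lowest. Nup358 (RanBP2 in vertebrates), the large filament protein that binds Ran and acts in SUMO attachment, had a conservative signal of 1013, with 363 in replicate 1 and 653 in replicate 2. That was the 95.1st percentile of signal among all genes with a peak. The summit was at -55 bp (peak chr3R:25249085-25249496). Nup214, an FG nucleoporin of the same face with a role in nuclear export, had 149, with 77.8 in replicate 1 and 83.7 in replicate 2, and its summit was the farthest from a TSS of any member, at -257 bp.

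All 3 nuclear basket genes had peaks in both replicates. Nup153, an FG nucleoporin that anchors the basket, had 656 in the conservative list, 262 in replicate 1 and 408 in replicate 2 (peak chrX:16598753-16599488). Nup50, its partner in import by importin alpha, had 606, with 246 in replicate 1 and 371 in replicate 2. Megator, the fly Tpr that forms the basket filaments, had 260, with 111 in replicate 1 and 167 in replicate 2.

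The genes of the pore membrane and Aladin lay near the median of all genes with a peak. Gp210, a membrane glycoprotein of the pore, had 288 in the conservative list and was the 1 member with the higher signal in replicate 1, 150 against 136 in replicate 2. Ndc1, a transmembrane nucleoporin needed for pore assembly, had 270, with 125 in replicate 1 and 140 in replicate 2. Aladin, a WD-repeat nucleoporin whose human gene is mutated in triple A syndrome, had 245, with 103 in replicate 1 and 134 in replicate 2. These 3 were listed in both replicates.

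**Figure D2:**
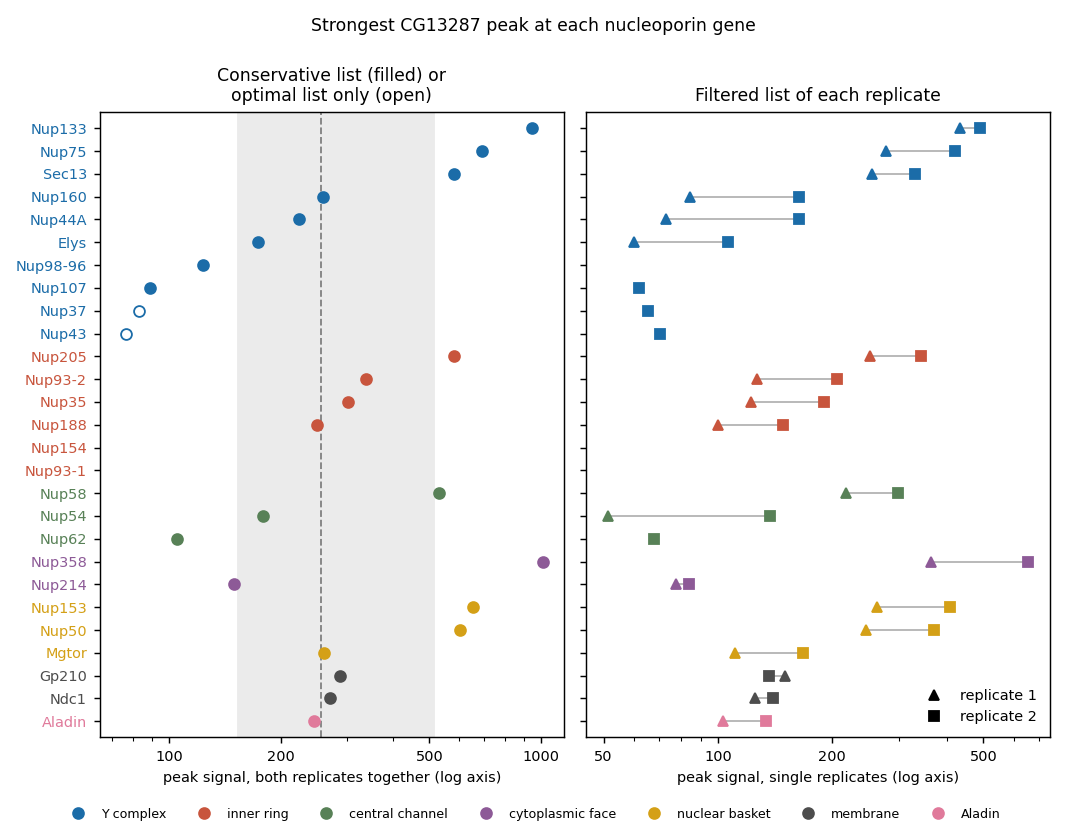
Deposited signal of the strongest peak within 500 bp of a TSS of each nucleoporin gene, on log axes, coloured by place in the pore. Left, the conservative list (filled circles) or, for Nup37 and Nup43, the optimal list alone (open circles), with the median of all genes with a conservative peak (dashed line, 255) and their quartiles (grey, 153 to 513). Right, the filtered lists of replicate 1 (triangles) and replicate 2 (squares). Nup154 and Nup93-1 have no point. Nup358 and Nup133 are the highest, and the square is right of the triangle at 19 of the 20 members listed in both replicates.

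Between the replicates the order of the members was largely kept. Over the 20 members listed in both, Spearman's rho of the signals was 0.863, and over the 4143 protein-coding genes listed in both it was 0.916. Both are descriptions across genes, which share the same 2 libraries. The signal was higher in replicate 2 at 19 of 20 members, against 92.3% of all genes listed in both, and the median ratio of replicate 2 to replicate 1 was 1.51 at members, against 1.44 at all genes. The depth and scaling behind these ratios are unknown. The summits of the replicates were a median of 20.5 bp apart at members, and the largest gap was 112 bp, at Nup214.

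The summits lay just upstream of the start sites. The median position was -55 bp (quartiles -74 and -34), against -60 bp (-133 and -14) for all genes with a peak. Of the 23 summits, 22 were upstream (95.7%), against 80.2% of all, and Nup188 was the exception, at 3 bp. Within 100 bp of the TSS were 21 summits (91.3%), against 61.3% of all, with Sec13 and Nup214 outside. The share of members within 100 bp was lower in the replicates' own lists, 70.0% in replicate 1, against 60.0% of all genes, and 83.3% in replicate 2, against 63.6%, and none of these differences was tested. The median peak width was 400 bp, against 450 bp, so neighbouring start sites can fall under 1 peak.

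Most of these summits also lay near the start site of another gene. At 17 of the 23 members (73.9%) the TSS of another gene lay within 500 bp of the summit, against 56.0% of all genes with a peak, and in all 17 that gene was divergent, read away from the nucleoporin gene on the other strand (51.7% of all). At 7 members (30.4%, against 26.8% of all) the summit was nearer to the neighbour's TSS. The peak of Elys lay 89 bp from its own TSS and 53 bp from that of Ranbp21, a gene of the exportin family of transport receptors, and their start sites are 36 bp apart. The peak of Nup153 lay 40 bp from its TSS and 14 bp from that of CG9784. The peak of Nup50 lay 34 bp from its TSS and 1 bp from that of Asap.

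The other 4 of these 7 were Nup205, Nup214, Nup75 and Sec13. At Nup205 the summit was 78 bp from its TSS and 77 bp from that of pico, a difference of no weight at this resolution. At Nup214 it was 257 bp from its TSS and 108 bp from that of ReepA. At Nup75 it was 71 bp from its TSS, 16 bp from that of CG42518 and 44 bp from that of MED9, a Mediator subunit gene. At Sec13 it was 196 bp from its TSS and 18 bp from that of ATPsynCF6, a subunit gene of the mitochondrial ATP synthase. The conservative list had a second entry for Sec13 with the same interval, at 4 bp from its TSS, with a signal of 55.0. Such a peak cannot be given to 1 gene of the pair from the lists.

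In the other 10 pairs the summit was nearer to the nucleoporin gene. They were Nup188 with CG13148 (start sites 70 bp apart), Nup98-96 with mbc (144 bp), Nup44A with ACC, the acetyl-CoA carboxylase gene (145 bp), Nup160 with Csl4, an RNA exosome subunit gene (210 bp), and Nup133 with wfs1 (227 bp). The wider pairs were Nup62 with CG7997 (302 bp), Nup93-2 with CG3817 (367 bp), Aladin with Cfp1 (453 bp), Gp210 with CG7791 (455 bp) and Nup35 with Rip11 (534 bp). At Nup93-2, Aladin, Gp210 and Nup35 the neighbour's TSS lay outside the interval of the peak, so that peak did not cover both start sites. No neighbour lay within 500 bp of the summit at Mgtor, Ndc1, Nup107, Nup358, Nup54 and Nup58.

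Counted over all 27 members, those with a peak and those without one together, a divergent start site was common. It was present within 500 bp upstream at 18 of 27 (66.7%), against 29.6% of all protein-coding genes. Among genes with one, 16 of 18 members (88.9%) had a conservative peak, against 69.6% of all such genes. Among genes without one, 7 of 9 members (77.8%) had a peak, against 27.3% of all. Within each kind of promoter the share of members with a peak was above that of all genes, and no test was made of either.

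**Figure D3:**
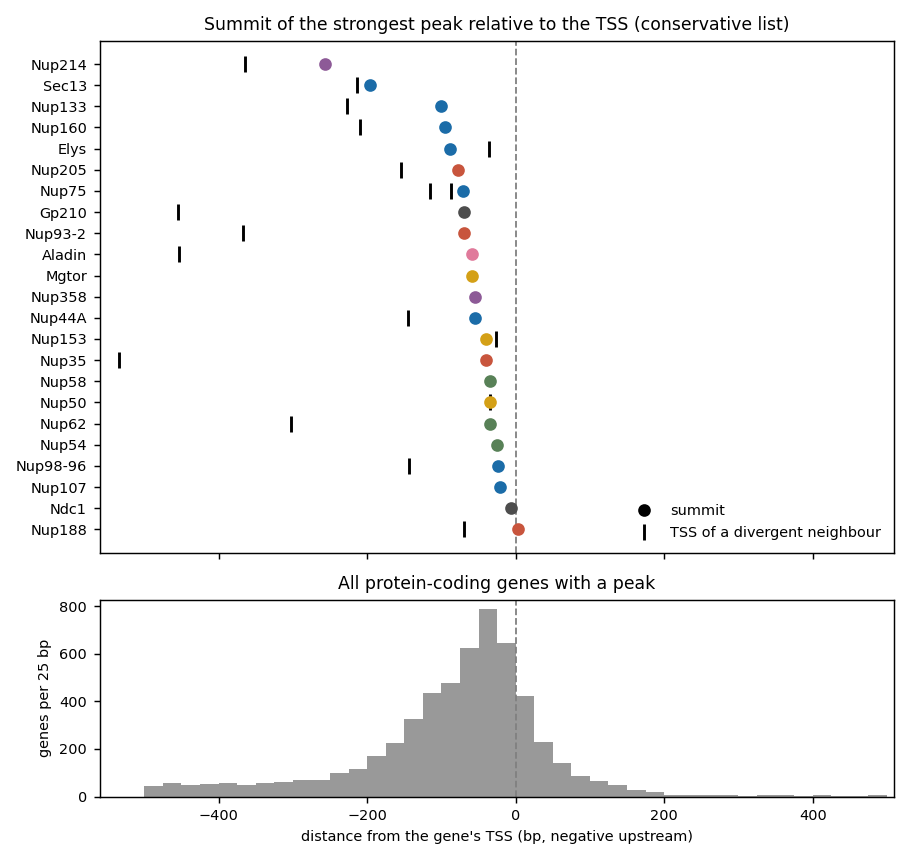
Distance of the conservative summit from the TSS (bp, negative upstream) for each of the 23 nucleoporin genes with a peak (circles, coloured by place in the pore as in the plot of signals), with the TSS of each divergent neighbour (black ticks), above the same distance for all 5565 protein-coding genes with a peak (genes per 25 bp). Nup214 and Sec13 are the summits farthest upstream, and the ticks at Elys and Nup153 lie between the summit and the gene's own TSS.

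Exact letters were searched for on both strands from 250 bp before to 50 bp after the TSS that the annotation marks as canonical. In a gene with several TSSs this need not be the one nearest the summit. ATCGAT was found in 15 of 27 nucleoporin promoters (55.6%), against 22.7% of all promoters, 40.0% of those of genes with a peak and 11.2% of those without. The complete DRE, TATCGATA, which contains ATCGAT, was found in 7 (25.9%), against 8.94% of all, 19.5% of those with a peak and 1.94% of those without. The 7 were Gp210, Mgtor, Nup188, Nup50, Nup54, Nup58 and Nup75. CGATA, a core bound by the insulator protein BEAF-32 that also lies within TATCGATA, was found in 17 (63.0%), against 46.9% of all and 63.8% of those with a peak. A match describes the letters and is not evidence that a factor was bound.

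All 15 members with ATCGAT in that window had a conservative peak, against 70.3% of all genes with it. Of the 12 members without it, 8 had a peak (66.7%), against 30.9% of all genes without it. The 8 were Elys, Nup107, Nup160, Nup214, Nup44A, Nup62, Nup98-96 and Sec13, and the 4 genes with no peak were all without it. Sec13 had the highest signal of these 8, 582, and the other 7 lay between 88.6 and 259.

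Around the summits the same letters were close by. Within 50 bp on either side of the summit, ATCGAT was found at 12 of 23 members (52.2%), against 31.3% of all genes with a peak, and TATCGATA at 5 (21.7%), against 15.5%. The median signal was 416 at the 12 members with ATCGAT there and 178 at the 11 without. Over all genes with a peak it was 457 with ATCGAT and 195 without. For the complete TATCGATA the medians of the members lay close together, 288 at the 5 with it and 265 at the 18 without, against 477 and 222 over all genes. Nup35 had 4 matches between -33 and 23 bp from its summit, and the Nup358 sequence printed above holds 2, centred at -25 and 28 bp from the summit. In Nup133 the match was at 42 bp from the summit, in Nup205 at -46 bp and in Ndc1 at -22 bp, while in Nup58 the complete DRE was centred at 27 bp from the summit and -8 bp from the TSS.

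The remaining motifs were less frequent. GGTCACACT, a form of the core promoter motif bound by M1BP, was found in 4 nucleoporin promoters (14.8%), against 5.86% of all and 10.9% of those with a peak. They were Ndc1, Nup160, Nup43 and Nup93-2, and Nup43 had no conservative peak. A match at Nup62, 33 bp from the TSS nearest its summit, was not counted, since the windows follow the canonical TSS. The E-box CAGCTG was found in 4 (14.8%), against 17.9% of all, 24.8% of those with a peak and 13.3% of those without. For the same reason a match at Nup44A, -28 bp from the TSS nearest its summit, was not counted. GAGAG, bound by GAGA factor, was found in 5 (18.5%), against 30.2% of all and 27.7% of those with a peak. CAGGTAG, bound by the early embryonic factor Zelda, was found in 1, Ndc1 (3.70%), against 1.72% of all and 1.38% of those with a peak. With counts of 1 to 5, a difference of 1 gene moves these shares by 3.70 percentage points.

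**Figure D4:**
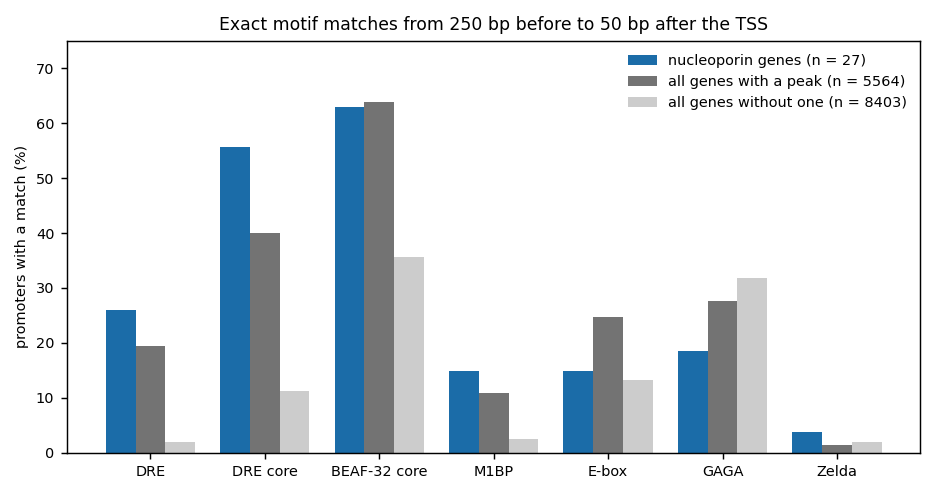
Share of promoters (%) with an exact match to each of 7 motifs, for the 27 nucleoporin genes (blue), all protein-coding genes with a conservative peak (dark grey) and all without one (light grey). The DRE core is ATCGAT and stands in 55.6%, 40.0% and 11.2% of these promoters, and the nucleoporin bars are below both grey bars for GAGA.

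The genes that work with the pore were examined in the same way, by lists of 54 genes. A conservative peak was found at 42 of them (77.8%), against 39.8% of all protein-coding genes. Transport receptors and the Ran cycle had 21 of 23 (91.3%). The highest signals were at Tnpo-SR (1224, a transportin for SR splicing proteins), RanBPM (953) and Ntf-2r (781), and Ranbp16 and Arts had no peak. Nuclear lamina genes and those of the complex that links nucleus and cytoskeleton had 10 of 12 (83.3%). The highest there were klar (1216), Lam, the B-type lamin (837), and kuk (677), and bocks and baf had none. Of the nucleoporin-associated genes Rae1 (633) and mbo, the fly Nup88 (79.0), had a peak and Gle1 had none.

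Of the mRNA export genes, 9 of 16 had a conservative peak and 12 were in the optimal list. The highest signals were at Hel25E, an RNA helicase of the export pathway (837), PCID2 (600) and sbr, the main mRNA export receptor (342). The peak of Hel25E is that of Lam, since both genes start from 1 divergent promoter. Neighbouring genes were also listed at the peaks of Tnpo-SR (HemK2 and Snapin), Ntf-2r (bsf), klar (BORCS6) and kuk (Keap1). The same was so at PCID2 (CG6083) and sbr (Pgls), so these signals cannot be given to 1 gene either. The 27 nucleoporin genes were thus not alone among nuclear envelope and transport genes in the share with a peak. Among the mRNA export genes that share was lower. The Elys peak is also counted for Ranbp21.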

How the data were processed

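The authors deposited peak lists on dm6: 4 filtered by IDR and 4 longer ranked lists. The files have no header line, so columns were read by the order of the narrowPeak format. The deposited signal is the signal value of that format. The score deposited beside it, whole numbers up to 1000, was read from its values as a scaled IDR. The names of the aligner and peak caller, and how a control entered, are not given in the sources used; the depth of each library is unknown. In the 4 ranked lists, 32 columns of values per library were not used.

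A summit was the peak start plus the deposited offset. Genes and TSSs came from the Ensembl BDGP6.54 annotation and sequence from the Release 6 genome. The strongest peak within 500 bp of a TSS stood for a gene. Promoter windows follow the canonical TSS. Peak assignment and motif search were tested on simulated data, with Python 3.11.15, numpy 2.4.6, scipy 1.17.1 and matplotlib. Alternatives were other lists, distances, stronger peaks, single replicates and other motif windows.

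The members, the other gene lists (55 symbols, 54 genes) and the motifs were chosen with earlier results of these data known. The naming rule took every member, and in each other list the 3 highest signals and, where 5 or fewer had no peak, those. Sequences were printed for members of high signal with ATCGAT near the summit and for those without a peak. Nup153, which also has a high signal and ATCGAT near its summit, was not printed. The part of its window outside annotated exons was 25 bp long and held no ATCGAT. Nup58 and Ndc1 were added after their values were seen. Sequences of 1 chromosome arm are not shown. Confidence intervals are exact Clopper-Pearson 95% intervals and cover counting error only.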

Additional observations from a re-analysis of the deposited data

How the results depend on the processing

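The number of nucleoporin genes with a peak was 23, and 25 in the optimal list, 22 to 23 at other distances, 17 with stronger peaks only and 26 to 27 in the ranked lists. With 1 replicate's list in place of both it was 20 to 24. For the 54 genes of the other lists it was 42 with both and 37 to 45 with 1 replicate's list. It was 31 there with stronger peaks only and up to 54 in the ranked lists. These counts moved with the share of all protein-coding genes with a peak. That share ran from 26.5% with stronger peaks only to 66.1% in the ranked list of replicate 2. Without Mgtor, an alternative chosen after seeing the data, 22 of 26 had one. The median summit position was -69 to -47 bp with 1 replicate's list, against -55 bp. Nucleoporin promoters with a DRE were 7 with the complete element and 15 with the core ATCGAT, a change by over 1.5 times, since the core is part of the element. No paired analysis was possible because there was only 1 group. With 2 replicates and no depth, the absence of a peak says that none passed the filter, not that CG13287 was absent.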
